A study of Homo sapiens and Homo sapiens
Mus musculus and Mus musculus with 9 samples.

Results

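Glycolysis turns glucose into pyruvate, and 32 of the 41713 genes of the deposited table that act on this route or are linked to it through oxygen sensing are described here. They were taken by gene symbol from a fixed list, and all 32 were found: 2 glucose transporters, the enzymes of each step down to pyruvate, the enzymes that set fructose 2,6-bisphosphate, the lactate dehydrogenases, 2 lactate transporters, 4 pyruvate dehydrogenase kinases and 5 genes of the response to low oxygen. The RNA came from C4-2B, a human prostate cancer cell line, cultured alone (3 libraries) and from a mixed co-culture of 1 part C4-2B to 30 parts MC3T3-E1, a mouse osteoblast line (3 libraries), a model built to ask how osteoblasts make cancer cells dormant. All cells are labelled wild type and grew in alpha-MEM with fetal bovine serum. C4-2B alone is 1 human line, the co-culture adds 1 mouse line, and the 3 libraries made from MC3T3-E1 without cancer cells were not used here.

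Glucose enters a cell through facilitative transporters, is trapped by hexokinase and is split into 3-carbon sugars, and the later enzymes recover ATP while pyruvate is made. Lactate dehydrogenase reduces pyruvate to lactate and restores NAD+, lactate leaves through monocarboxylate transporters, and the pyruvate dehydrogenase kinases inhibit the complex that turns pyruvate into acetyl-CoA inside the mitochondria. Under low oxygen the factor HIF-1, of which HIF1A encodes the regulated subunit, raises many of these genes. Normal prostate epithelium is known for its unusual citrate metabolism, and prostate cancers for a shift in how they use glucose as they advance.

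The value of a gene in the data used is the authors' mean over the 6 libraries of C4-2B alone and the co-culture, with counts divided by the size factor of each library, from each of 3 pipelines. Xenome keeps the reads it classes as human, XenofilteR drops reads that align better to the mouse genome, and Kallisto assigns reads to the joined human and mouse transcripts. A mean pools both groups, and the values per library that can be worked out from low means carry no group label. No test between the groups was therefore made. In such bulk means, fewer cells of a type and less RNA per cell cannot be told apart. The size factors, solved from the low means of the Xenome columns, were 5.93, 5.31 and 4.86 for 3 libraries and 0.427, 0.145 and 0.109 for the other 3. The second set is far shallower, at roughly 18.1, 6.14 and 4.61 M human counts against 251, 225 and 206 M, so each mean weighs deep and shallow libraries alike and takes most of its counting error from the shallow ones. Which libraries belong to which group is not stated for the solved values, so they are numbered 1 to 6 by depth.

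The cells were prostate by their markers. Each of the 9 luminal genes measured was high in the Xenome mean, led by KLK3, which encodes prostate-specific antigen, at 51038. Of 14 osteoblast and fibroblast genes, 7 reached a mean of 10 with Xenome, led by FN1 (40055), COL1A1 (3384) and RUNX2 (411). The bone genes ALPL, SPP1 and BGLAP stood at 0.103, 0.653 and 3.78.

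The enzymes of the lower part of glycolysis were among the most abundant messages of these cells. Per kilobase of exon, which allows genes of unlike length to be compared, the median of the 32 genes was 536 in the Xenome means against 119.8 over the 19119 genes with a mean of at least 10 and an exon length. With Xenome, 12 of the 32 genes lay in the top 10% of those genes by this level; this is a rank and not a test. The 32 genes held 1.14% of all mean counts with Xenome, 1.32% with XenofilteR and 1.37% with Kallisto.

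**Figure D1:**
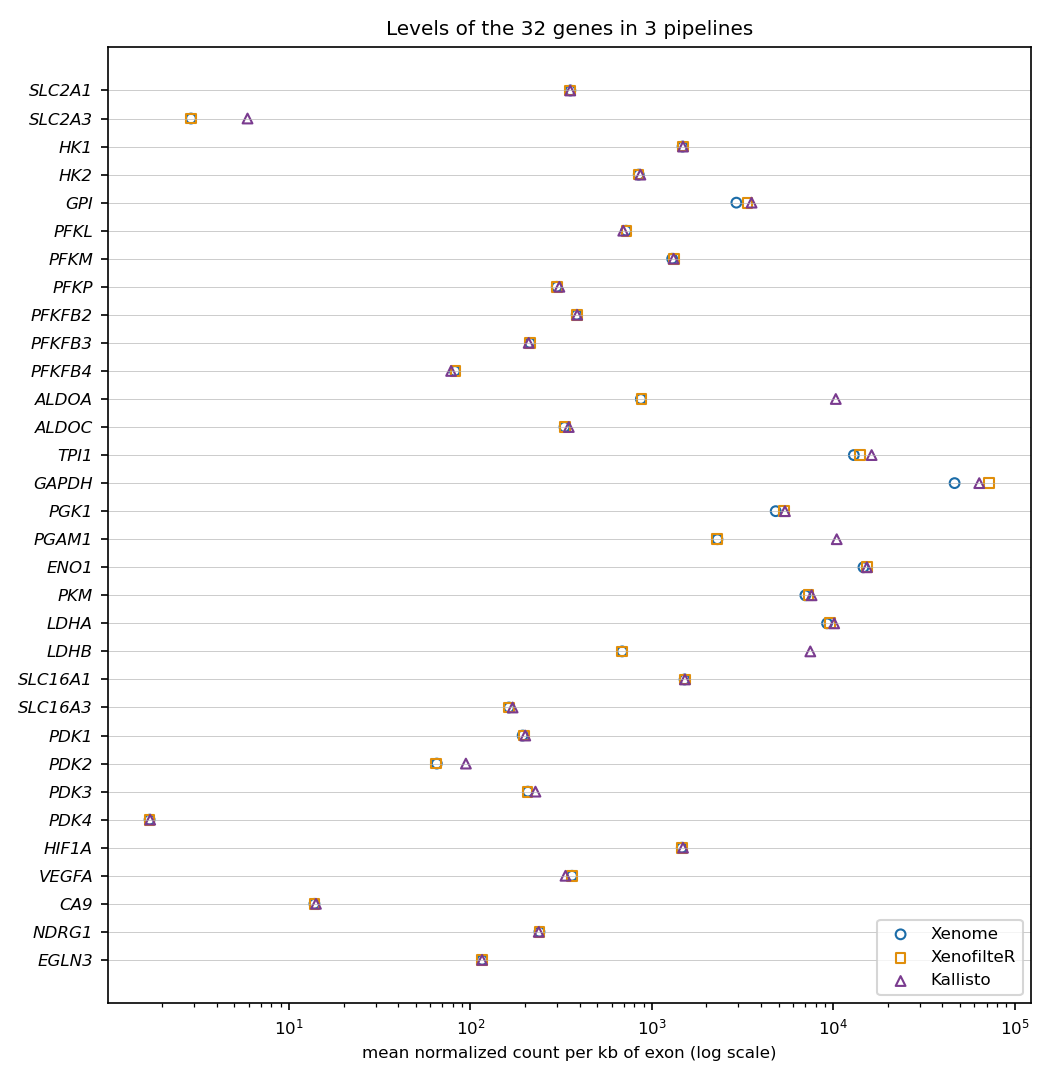
Mean normalized count per kilobase of exon (log axis) of each of the 32 genes in the Xenome, XenofilteR and Kallisto columns. GAPDH is highest in each, PDK4, SLC2A3 and CA9 are lowest, and the Kallisto marks of ALDOA, LDHB, PGAM1 and SLC2A3 stand apart from the other 2 marks.

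GAPDH, which oxidises glyceraldehyde 3-phosphate and lies at chr12:6534512-6538374 (GRCh38), had the highest level at 46639 per kilobase with Xenome. ENO1 (enolase, which makes phosphoenolpyruvate) followed at 14672 per kilobase and TPI1 (triose phosphate isomerase) at 12986. LDHA reached 9241, PKM (pyruvate kinase, the last step) 7018 and PGK1 (phosphoglycerate kinase, the first step that yields ATP) 4816 per kilobase. GPI, which turns glucose 6-phosphate into fructose 6-phosphate, stood at 2924 and PGAM1, a phosphoglycerate mutase, at 2298. These 8 genes all lay above the 96th percentile. Were a gene's level equal in all 6 libraries, the counting error (1 SE) of its Xenome mean would be 0.217% for GAPDH and 0.951% for PGAM1, and these 8 levels differ by more than that. The spread between libraries is not known for them. With the length of the MANE Select transcript, the agreed main transcript of a gene, GAPDH and ENO1 stayed first, and PKM (26099 per kilobase) lay above TPI1 (25953) and LDHA (24848). The order also differed in the Kallisto means per kilobase of exon. There GAPDH stayed first, TPI1 (16269) lay above ENO1 (15323), and PGAM1 (10448) and ALDOA (10325) lay above LDHA (10118).

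Of the 2 glucose transporters, SLC2A1 (GLUT1, the broadly expressed form) had the higher message level. Its Xenome mean was 2352, or 356 per kilobase, at the 71.4th percentile. SLC2A3 (GLUT3, a high-affinity transporter known from neurons) had a mean of 20.9, or 2.88 per kilobase, so SLC2A1 made up 99.2% of the 2 (counting interval 98.9% to 99.4%). HK1, the housekeeping hexokinase, stood at 1477 per kilobase and HK2, the inducible form often raised in tumours, at 847, which gave HK1 63.6% of their sum. Both hexokinases were thus well expressed.

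Phosphofructokinase commits sugar to glycolysis, and all 3 of its genes were expressed. PFKM, named for muscle, led at 1295 per kilobase with Xenome, PFKL (liver) stood at 721 and PFKP (platelet) at 299, which is 55.9%, 31.2% and 12.9% of their sum. The PFKFB enzymes make and break fructose 2,6-bisphosphate, the activator of phosphofructokinase. Among them PFKFB2 led at 385 per kilobase (56.6% of the sum), followed by PFKFB3 at 213 and PFKFB4 at 82.1.

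The fate of pyruvate was described by 3 groups. LDHA, the dehydrogenase subunit that favours lactate, held 93.1% of the lactate dehydrogenase sum per kilobase with Xenome, and LDHB, the heart subunit, 6.91%; this balance was not the same in the Kallisto means, where LDHA held 57.5%. SLC16A1 (MCT1, which moves lactate in or out) stood at 1515 per kilobase and SLC16A3 (MCT4, known for lactate export) at 163, so SLC16A1 held 90.3%. BSG, the chaperone of both transporters and the highest of the other 27 glycolysis and lactate genes examined, had a Xenome mean of 21356.

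Of the pyruvate dehydrogenase kinases, PDK3 and PDK1 were close, at 207 and 194 per kilobase of exon with Xenome (44.3% and 41.4% of the sum). PDK2 stood at 65.3 and PDK4, known as the kinase of fasting and fat oxidation, at 1.71. The lead of PDK3 over PDK1 depended in size on the length used: all annotated exons of PDK3 cover 17456 bases but its MANE Select transcript only 1741, and with that length PDK3 held 86.9% of the sum. The 9 genes of pyruvate entry cover the pyruvate dehydrogenase complex that these kinases act on, its phosphatases and the mitochondrial pyruvate carrier. All 9 reached a mean of 10, led by DLD (22109.7), MPC2 (13569) and DLAT (11981), with a median of 1354 per kilobase.

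**Figure D2:**
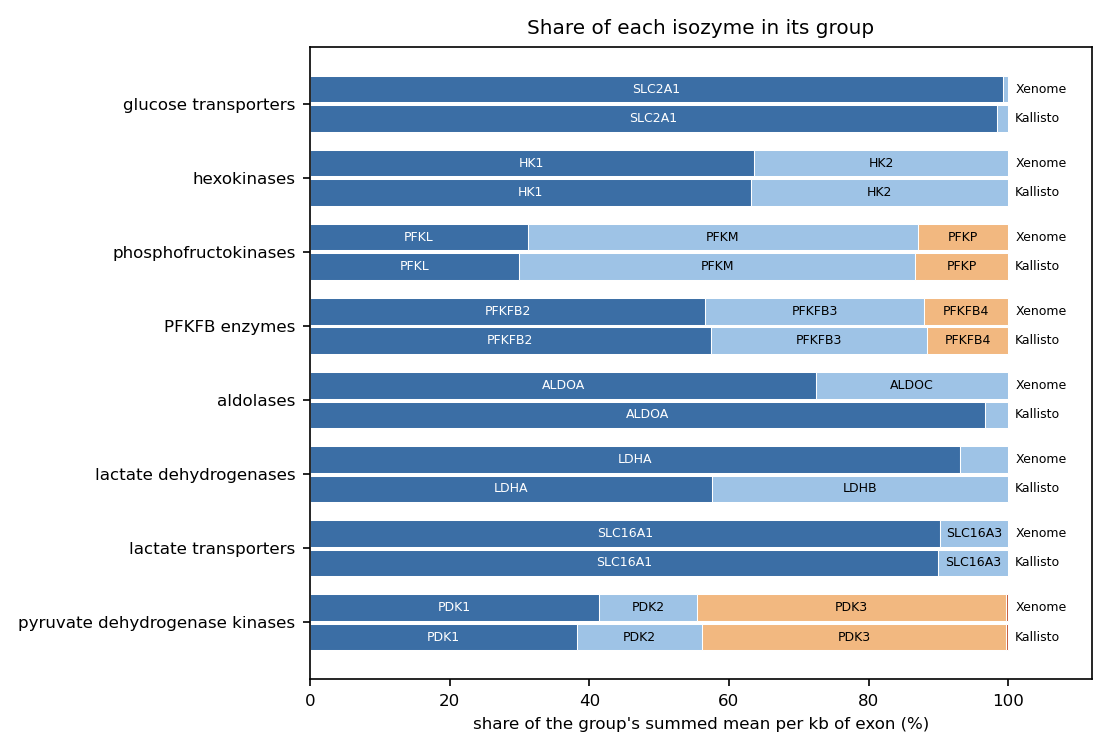
Share of each isozyme in its group's summed mean per kilobase of exon (percent), as paired bars for Xenome and Kallisto. The leading gene is the same in both bars of all 8 groups, while ALDOA holds 72.5% with Xenome and 96.7% with Kallisto and LDHA 93.1% and 57.5%.

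HIF1A itself was well expressed, with a Xenome mean of 7533 (1462 per kilobase, 93.3rd percentile). Of the genes that HIF-1 is known to raise, VEGFA (a growth factor for vessels) stood at 363 per kilobase, NDRG1 at 240.3 and EGLN3 (a prolyl hydroxylase that marks HIF for destruction) at 116. CA9 (carbonic anhydrase IX, a membrane enzyme used as a mark of hypoxia) was at 13.8 per kilobase, the 16.9th percentile. By these pooled means CA9 lay below most genes and HIF1A above most. The CA9 mean of 22.1 rests largely on 2 libraries and was 13.6 without library 6. Of 19 further genes of the hypoxia pathway, 18 reached a mean of 10 with Xenome, led by BNIP3 (7316), P4HA1 (3494) and BNIP3L (3329), and their median over all 19 was 131 per kilobase.

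Whole reads could be recovered for the 3 genes with the lowest means, because a low mean is a sum of a few reads, each worth a known amount in its library. Each had exactly 1 solution. SLC2A3 gave 95, 79 and 100 reads in libraries 1 to 3 and 9, 5 and 2 in libraries 4 to 6 with Xenome. Divided by size factors these are 16.03, 14.9, 20.6, 21.1, 34.5 and 18.4, and the 95% Poisson intervals of all 6 overlap. PDK4 gave 49, 24, 41, 0, 1 and 2 reads, or levels of 8.27, 4.52, 8.43, 0, 6.91 and 18.4. The 0 of library 4 allows a level of up to 7.03 (3 counts), and its 95% Poisson interval ends at 8.65. That interval thus overlaps those of libraries 1 and 3, which begin at 6.12 and 6.05, and it holds the level of library 2. These intervals and limits cover counting error only.

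CA9, at chr9:35673918-35681159, differed from both in its pattern. It gave 0, 14, 5 and 1 reads in libraries 1 to 4 and 9 and 7 reads in libraries 5 and 6 with Xenome. Divided by size factors, the level was 0 in library 1 (which allows up to 0.506), 2.63, 1.03 and 2.34 in libraries 2 to 4, and 62.2 and 64.3 in libraries 5 and 6. The Poisson intervals of libraries 5 and 6, 28.4 to 118 and 25.8 to 132, lie above those of the other 4, the highest of which ends at 13.1. The 22.1 of the mean thus rests on 16 of the 36 reads, all from the 2 shallowest libraries, and is 14.1 without library 5 and 13.6 without library 6. None of its 31-base sequences occurs exactly in a mouse transcript. XenofilteR, run on the same libraries, gave the same 36 reads. The part of mouse reads in the CA9 levels was not tested.

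Depth and several osteoblast and fibroblast markers differed between libraries as well. Of the 14 osteoblast and fibroblast genes, the 9 with solved reads summed to levels of 81.5, 71.5, 63.4, 75.02, 186 and 138 in libraries 1 to 6, with 2 to 6 of the 9 at 0 in each library. COL1A2 (a chain of type I collagen) gave 1, 0 and 0 reads in libraries 1 to 3 and 12, 19 and 12 in libraries 4 to 6, and without it the sums were 81.3, 71.5, 63.4, 46.9, 55.3 and 27.6. These are Xenome values. With Xenome, POSTN (periostin) gave 0 reads in libraries 1 to 3 and 1, 2 and 1 in libraries 4 to 6, where XenofilteR gave 1, 7 and 0, and with Xenome COL3A1 (type III collagen) stood at 66.5, 60.4 and 55.5 in libraries 1 to 3 and at 28.1, 34.5 and 18.4 in libraries 4 to 6. The XenofilteR means of COL1A2 and COL3A1 were 5.86 and 8.85 times their Xenome means and lie above the limit of 50 up to which reads were solved, so the marker levels depend on the pipeline. Their part in the CA9 result was not tested. Of the exon bases of CA9, 35.7% also lie opposite exons of ARHGEF39, whose Xenome mean was 1611, and whether the counts were kept apart by strand is not given in the sources used here, so reads of the 2 genes cannot be told apart there.

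**Figure D3:**
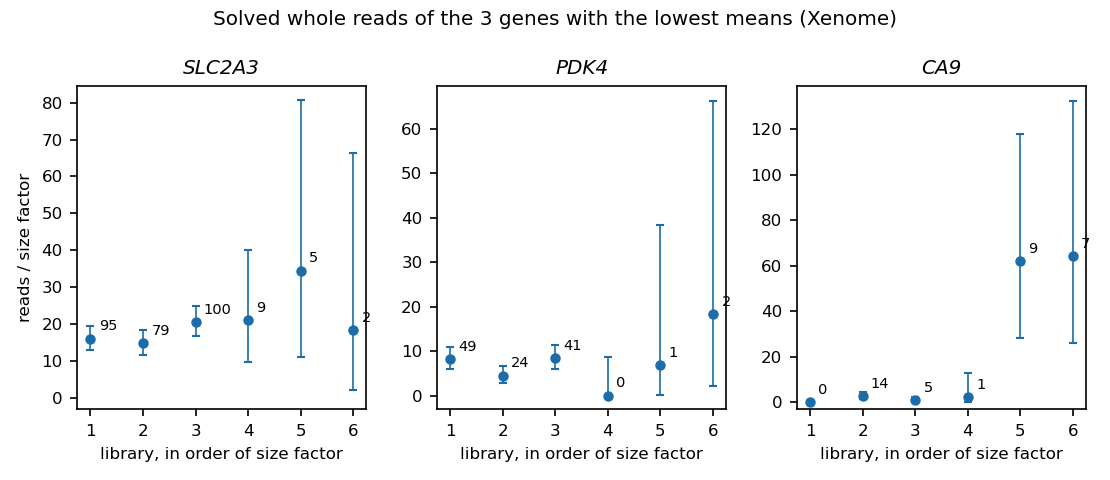
Reads divided by size factor (points) with 95% Poisson intervals (bars) and the number of reads (labels) in libraries 1 to 6 for SLC2A3, PDK4 and CA9, Xenome. The intervals of SLC2A3 overlap throughout, and CA9 stands at 62.2 and 64.3 in libraries 5 and 6 against at most 2.63 in the other 4.

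The promoter of CA9 is shown beside that of LDHA, since both genes are textbook targets of HIF-1 and lie at opposite ends of the levels above. The core that HIF-1 reads, ACGTG, was searched on both strands (CACGT on the other) in RefSeq promoter windows of GRCh38.p14, from 250 bases before to 50 after each start. Capitals mark the match. The CA9 stretch is chr9:35673882-35673941 on the plus strand and the LDHA stretch chr11:18394368-18394427, also plus.
CA9: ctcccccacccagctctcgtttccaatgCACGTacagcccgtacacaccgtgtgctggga
LDHA: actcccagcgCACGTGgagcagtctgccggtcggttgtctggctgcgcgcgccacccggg
Windows were found for 27 of the 32 genes, in all 56 windows, of which 20 (35.7%) held the motif; of all 35116 windows, 21.4% did. CA9 had 1 match in its window. LDHA had 5 in the window printed from and none in its other window, chr11:18396101-18396400. Each strand was counted, so the CACGTG printed for LDHA makes up 2 of the 5 matches though it is 1 site. A match is a description of the letters only.

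The 3 pipelines gave nearly the same mean for most of these genes. XenofilteR lay within 5% of Xenome for 28 of 32 genes, and Kallisto within 10% for 22. A departure was counted where the ratio to Xenome, divided by the median ratio of all genes compared (1.00 for XenofilteR, 1.02 for Kallisto), was at least 1.5 times either way and both means were at least 10; PDK4 fell under that minimum, which left 31 genes. With Kallisto, 4 of 31 departed (12.9%), all upward, against 14.1% of the 13262 genes compared, so the share is near that of all genes. With XenofilteR, 1 of 31 departed, GAPDH, against 0.957% of 19025 genes.

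ALDOA, the main muscle and tumour aldolase at chr16:30064164-30070457, had means of 3333 with Xenome, 3360 with XenofilteR and 39536 with Kallisto, a ratio of 11.9. LDHB, at chr12:21635342-21757857, had means of 2047, 2034 and 22291, a ratio of 10.9. Both share exons with another gene model on the same strand. For ALDOA, 1472 of the 1640 bases of the MANE Select transcript (89.8%, in 9 of 10 exons) are also exons of ENSG00000285043, and for LDHB 997 of 1303 bases (76.5%, 8 of 8 exons) are also exons of ENSG00000285854. These models themselves had Xenome means of 86.3 and 0.569. Among protein-coding genes, with LDHB and VEGFA added because the table gives them another biotype, those with 30% or more of their exon bases shared in this way (a limit set after the values were seen) had a median ratio of Kallisto to Xenome of 3.32 (511 genes), against 1.02 for the 12715 genes with less. Of the 31-base sequences of ALDOA 1.76% were found in mouse transcripts (77.8th percentile) and of those of LDHB 0.523% (50.7th percentile), against a median of 0.502% over protein-coding genes. Over the same genes as in the exon split the median ratio was 1.04 for the 842 with 5% or more of such sequences in mouse transcripts and 1.02 for the 12384 with less. The part of shared exons and of mouse sequence in the departures of ALDOA and LDHB was not tested.

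The balance of these isozymes differed between the pipelines accordingly. Per kilobase, ALDOA held 72.5% against ALDOC (a brain aldolase, at 330.1 per kilobase) with Xenome and 96.7% with Kallisto. LDHB stood at 686 per kilobase with Xenome and 7473 with Kallisto, beside LDHA at 9241 and 10118.

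PGAM1, at chr10:97426191-97433444, had means of 5838, 5829 and 26538, a ratio of 4.55. No gene overlaps its exons on its strand, yet 47.3% of its 31-base sequences occur in human genes elsewhere, the largest share of the 32 genes. The nearest is PGAM4, a copy on chromosome X that lacks introns, whose mean was 65.4 with Xenome and 8.13 with Kallisto. Of the 1753 windows of 50 bases, the read length, in the MANE Select transcript of PGAM1, 597 (34.1%) are identical in PGAM4. The stretch below, the start of the coding sequence, shows how little separates the 2; capitals mark the base that differs. It lies at chr10:97426308-97426367 (plus strand) for PGAM1 and chrX:77969579-77969638 (minus strand) for PGAM4, both GRCh38.
PGAM1: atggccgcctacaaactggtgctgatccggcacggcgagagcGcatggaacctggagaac
PGAM4: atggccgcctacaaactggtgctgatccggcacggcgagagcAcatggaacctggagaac
SLC2A3, at chr12:7919230-7936187, was measured at a far lower level, with means of 20.9, 20.9 and 42.8 and a ratio of 2.05. Of its 31-base sequences 28.8% occur elsewhere in human genes, mostly in its neighbour SLC2A14, and 23.5% of its windows of 50 bases are identical there. The stretch below is, leaving out identical stretches, a pair of coding windows with as few differences as were found, at chr12:7933825-7933884 for SLC2A3 and chr12:7832737-7832796 for SLC2A14, both minus strand, with the differing base in capitals.
SLC2A3: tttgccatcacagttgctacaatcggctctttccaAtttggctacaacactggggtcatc
SLC2A14: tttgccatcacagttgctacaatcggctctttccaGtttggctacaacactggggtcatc
Among the protein-coding genes, LDHB and VEGFA again added, those with 40% or more of such sequences elsewhere and little exon overlap (a limit also set after the values were seen, with PGAM1 above it and SLC2A3 below) had a median ratio of 2.05 (491 genes), against 1.02 for the 12224 others. The part of shared sequence in the ratios of PGAM1 and SLC2A3 was not tested. No other gene of the 32 reached a centred ratio of 1.5. PDK2 came next at 1.41, and 38.6% of its exon bases lie opposite SAMD14.

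**Figure D4:**
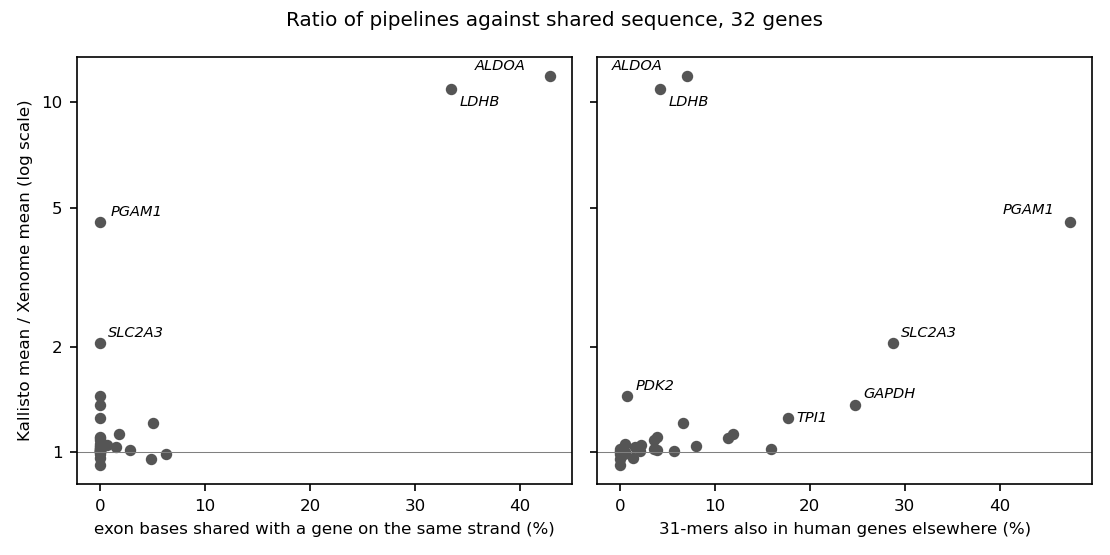
Kallisto mean over Xenome mean (log axis) of the 32 genes against the percent of exon bases shared with a gene on the same strand (left) and the percent of 31-base sequences also found in human genes elsewhere (right). ALDOA and LDHB stand alone at 42.8% and 33.4% on the left, and PGAM1 and SLC2A3 have the highest shares on the right, at 47.3% and 28.8%.

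GAPDH was the gene whose mean departed between the pipelines that remove mouse reads. Its mean was 111748 from Xenome, 172918 from XenofilteR and 152787 from Kallisto, so XenofilteR lay 1.55 times and Kallisto 1.37 times above Xenome. Of its 31-base sequences 6.60% occur in mouse transcripts, the highest of the 32 genes (range 0 to 6.60%) and above 96.2% of protein-coding genes. HIF1A was next at 5.04%, and its means were 7533, 7542 and 7652. The next ratios of XenofilteR to Xenome were 1.15 for GPI, 1.11 for PGK1 and 1.08 for TPI1, none of which passed the threshold.

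Some pseudogenes of GAPDH also differed between these pipelines. The table lists 70 pseudogenes named for the genes of the list, 39 of them for GAPDH, nearly all of the processed kind, which are copies of a message pasted back into the genome; Kallisto lists no mean for any. Of the 36 GAPDH pseudogenes with a mean in both, 11 were at least 1.5 times higher with XenofilteR than with Xenome, 3 were lower by as much and 22 lay between. All 39 summed to 2178 with Xenome, which is 1.95% of GAPDH, and to 31799 with XenofilteR, which is 18.4%. The 5 largest gains made up 97.0% of the difference: GAPDHP65 went from 282 to 8760.1, GAPDHP44 from 8.28 to 7969.7, GAPDHP60 from 4.12 to 5906, GAPDHP63 from 54.9 to 5101 and GAPDHP26 from 0.137 to 1345. GAPDHP1 stood at 1533 with Xenome and 2167 with XenofilteR. With XenofilteR 6 GAPDH pseudogenes exceeded a mean of 1000, and with Xenome 1 did. Among the other families sums moved both ways. That of HK2, the single HK2P1, went from 8.61 to 15.9, that of PKM from 65.8 to 32.1 and that of ALDOA from 2.18 to 0.303. The 9 others had XenofilteR to Xenome ratios of 0.825 to 0.999. The changes for HK2 and ALDOA come mostly from a few reads in the shallow libraries. HK2P1 gave 4 and 4 reads in libraries 4 and 5 with Xenome and 7 and 9 with XenofilteR. ALDOAP2 gave 1 read in library 6 with Xenome, a level of 9.18, and 0 with XenofilteR. The TPI1 pseudogenes summed to 1954 and 1939, those of LDHA to 650.2 and 584, and those of PGAM1 to 26.9 and 26.6.

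**Figure D5:**
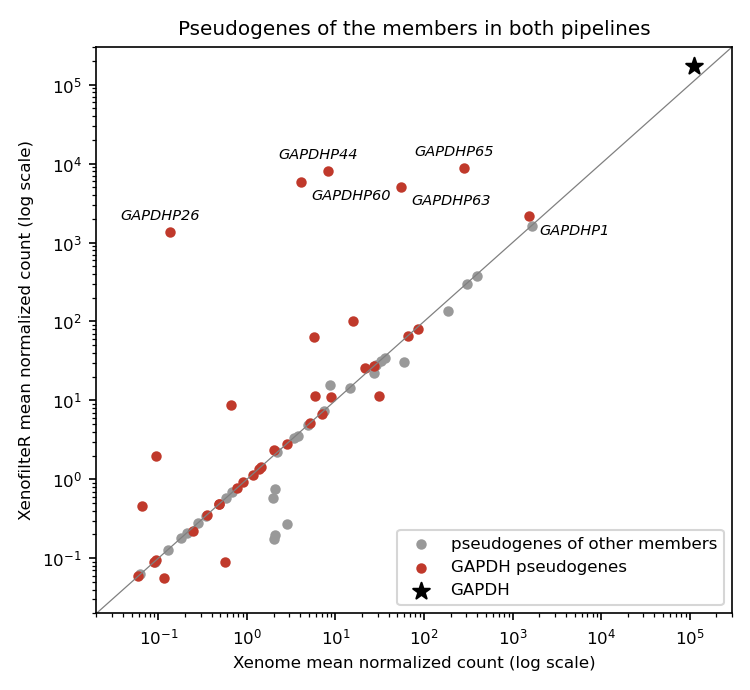
Mean normalized count with XenofilteR against Xenome (both log axes) of each pseudogene with a mean above 0 in both, and of GAPDH itself (star); the line marks equal means. GAPDHP65, GAPDHP44, GAPDHP60, GAPDHP63 and GAPDHP26 lie far above the line, at 1345 or more with XenofilteR against 282 or less with Xenome, and the pseudogenes of other genes lie on or below it with few exceptions.

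A chosen stretch of GAPDH shows how close human, mouse and pseudogene copies can be within 1 read. The 50 bases printed lie within a single coding exon in both species, differ between human and mouse at no more than 10 bases, and are nearer to mouse Gapdh in both GAPDHP65 and GAPDHP44, the pseudogenes with the highest XenofilteR means, than in human GAPDH. Among such stretches the largest summed difference was taken, and the first of equals. Capitals mark bases that differ from human GAPDH. The stretches are chr12:6538101-6538150 (plus) for GAPDH, chrX:46439726-46439775 (minus) for GAPDHP65 and chr12:62756164-62756213 (plus) for GAPDHP44 in GRCh38, and chr6:125162052-125162101 (minus) in GRCm38 for mouse Gapdh.
human GAPDH: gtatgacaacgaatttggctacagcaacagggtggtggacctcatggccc
mouse Gapdh: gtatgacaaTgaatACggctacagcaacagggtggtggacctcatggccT
GAPDHP65: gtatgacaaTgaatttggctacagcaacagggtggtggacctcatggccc
GAPDHP44: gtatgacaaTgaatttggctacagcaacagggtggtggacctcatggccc
Here mouse Gapdh differs from human GAPDH at 4 bases and from each of the 2 pseudogenes at 3. Over all windows of 50 bases in mouse Gapdh, the median was 6 mismatches to human GAPDH. Of the 1224 windows of 50 bases in mouse Gapdh, 662 (54.1%) had fewer mismatches to at least 1 of the 39 GAPDH pseudogenes than to human GAPDH, and 7 were identical to human GAPDH. The 54.1% sets the best of 39 pseudogenes against 1 gene, which by itself raises the share, and no background share was computed. Taken singly, GAPDHP65 had the most of these nearer windows, 201 (16.4%). GAPDHP1 had 166, GAPDHP61 had 122 with means of 21.3 and 25.5, and GAPDHP44 had 72. Counted instead by windows within 2 mismatches of the pseudogene, GAPDHP65, GAPDHP44 and GAPDHP60 had the most, with 91, 47 and 43, followed by GAPDHP1 with 35. GAPDHP38 and GAPDHP72 had 32 each, GAPDHP61 had 29 and GAPDHP63 28, and GAPDHP26 had 11. GAPDHP72, with means of 66.8 and 65.6, thus had more than GAPDHP63 and GAPDHP26, whose means differed far more between the pipelines. Whether mouse reads make up the gain of GAPDH and its pseudogenes was not tested.

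The lists of other pathway genes are read against the same shares of all genes, 14.1% for Kallisto and 0.957% for XenofilteR. Among the other glycolysis and lactate genes, 2 of 14 compared departed upward with Kallisto (LDHAL6A and FBP2), of pyruvate entry 0 of 9, and of the hypoxia pathway 4 of 18 (VHL, DDIT4, EGLN1 and EGLN2); these were named after their values were seen. EGLN1, the main oxygen sensor of HIF, had means of 695 with Xenome and 3545 with Kallisto. None of the 3 pathway lists had a gene that departed with XenofilteR. Of the osteoblast and fibroblast genes, 3 of 7 did, COL1A2 (45.0 to 264), COL3A1 (43.9 to 389) and SPARC (72.0 to 142), all upward, while none of the 9 luminal genes did. With Kallisto these 3 and VIM (264 to 424) departed upward, 4 of 7, and again none of the 9 luminal genes; these too were named after their values were seen.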

How the data were processed

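RNA was measured by 50 bp paired-end sequencing of stranded mRNA libraries from C4-2B cells alone, the co-culture and MC3T3-E1 cells alone (3 libraries each); groups follow the labels. Per the study's methods, Xenome was used by the authors to sort out human reads before HISAT2 alignment to GRCh38, XenofilteR to discard mouse alignments after HISAT2 runs on GRCh38 and GRCm38, and featureCounts to count both; Kallisto ran on the joined transcriptomes. Tool versions and the use of strand in counting are not given in the sources used here. The deposited mean of each gene and pipeline is the authors' mean over 6 libraries of counts divided by DESeq2 size factors. The table also holds the authors' log2 fold changes, standard errors, Wald statistics and p-values, which were neither used nor compared. No column of per-sample values was left unused (0).

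Of 41734 rows, 21 repeats were dropped. Reads per library were solved from the low means, where 1 read of each library is worth a fixed amount; all 17404 genes (Xenome) with a mean under 5 had exactly 1 solution, and on simulated data 25 of 25 genes (100%) were recovered. Exon lengths, exon overlaps and shared 31-base sequences came from GENCODE 44 (24 of 32 genes have the same coordinates as the table) and mouse GENCODE M21. Departures needed a centred ratio of 1.5 and means of 10. The members and gene lists were chosen with earlier results of these data known. Every member is named; of other lists, up to 3 genes with the highest Xenome mean, and others where said. The design foresaw a count test if the table held counts per library, and it does not. Alternatives were another pipeline, protein-coding genes only, other minimums and folds, and other lengths. Python 3.11.15, numpy 2.4.6, pandas 2.3.3 and scipy 1.17.1 were used.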

Additional observations from a re-analysis of the deposited data

How the results depend on the processing

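The number of the 32 genes in the top 10% per kilobase was 12 with Xenome and 11 to 16 under 4 alternatives, highest with no minimum on the mean. The order of isozymes was the same in all 8 groups under 4 settings and under 2 more chosen after seeing the data (the MANE Select length, with Xenome and with Kallisto). The leading gene stayed the same in all 48 comparisons of group and setting. Kallisto departures numbered 4, and 3 with a minimum mean of 50 or protein-coding genes only, where LDHB is left out because the table gives it another biotype. The XenofilteR departure of GAPDH was lost with a fold of 2, which gave 0 genes. The reads of the 3 low genes summed to 443 with either pipeline. No paired analysis was possible because the deposited values used are means over both groups and carry no replicate number. For the same reason, and because the solved libraries carry no group label, no test between groups was had. Leaving out 1 library in turn was possible for the 3 of the 32 genes with solved reads and was added after seeing the data. The Xenome mean of SLC2A3 (20.9) then ranged from 18.2 to 22.1, that of PDK4 (7.75) from 5.62 to 9.30 and that of CA9 (22.1) from 13.6 without library 6 to 26.5 without library 1. Depth limits SLC2A3, PDK4 and CA9, with 290, 117 and 36 reads in all.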

Other observations

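A few genes of the other lists, named after their values were seen, appeared with Kallisto and were near 0 with the other pipelines. GAPDHS, the sperm form of GAPDH, had means of 1.67 with Xenome, 1.67 with XenofilteR and 193 with Kallisto. HIF3A, a HIF relative, had means of 1.21, 1.18 and 46.7. DCN, from the osteoblast and fibroblast list and a matrix proteoglycan of connective tissue, had means of 0.966, 0.966 and 64.6.

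Other forms stayed low in each pipeline: HK3 and HKDC1, 2 further hexokinases, had Xenome means of 1.10 and 1.69, and PKLR, the liver and red cell pyruvate kinase, had 1.78. SLC2A2, the liver and islet glucose transporter, had 0.0844.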
